A study of Arabidopsis thaliana with 12 samples.

Results

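WRKY transcription factors are plant proteins that bind DNA through a domain named after the first 4 residues of its conserved heptapeptide, followed by a zinc finger. The genes described here were taken by identifier: 56 WRKY genes of Arabidopsis thaliana were listed, WRKY33 and WRKY46 being left out by the choice of members, and 54 of these were followed in a count table of 26568 genes. The other 2 were not analysed here. The list does not hold every WRKY gene of the species, so family, group and subgroup below mean the listed genes. Of the 54, 53 had enough counts to be tested, among 19327 genes tested in all, and WRKY64 did not pass the filter on low counts.

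The libraries were made from roots of natural accessions (ecotypes) grown hydroponically. Or-1 is the ecotype labelled as tolerant of NH4+ and Rak-2 the one labelled as sensitive, and the labels give no transgene or mutation for either. Or-1 NH4+ and Rak-2 NH4+ plants spent 1 d in 1 mM (NH4)2SO4, and Or-1 NO3- and Rak-2 NO3- plants spent 1 d in 1 mM Ca(NO3)2. All 4 groups had first been kept for 5 d in nitrate solution and, by the study's methods, for 3 d without nitrogen, so that the NO3- plants were resupplied plants and not plants at a steady state. The salts also differ in their counterions, sulphate and calcium. By the study's methods calcium was brought to the same concentration in all solutions. The sulphate of the NH4+ salt cannot be told apart from the nitrogen source. Each group had 3 libraries, described in the methods as biological replicates, and each ecotype is a single accession. RNA of whole roots was measured, so fewer cells expressing a gene and less of its RNA per cell cannot be told apart.

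Many WRKY proteins bind the W-box, a short promoter element with a TGAC core, and act as activators or repressors in defence, salicylic acid signalling, senescence and nutrient stress. Several are phosphorylated by MAP kinases or bind VQ motif proteins, and WRKY genes often carry W-boxes in their own promoters, so that the family forms a network. The family is split into group I, with a pair of WRKY domains, group II with subgroups IIa to IIe, and group III, whose zinc finger ends in histidine and cysteine (C2HC) in place of a pair of histidines (C2H2). In roots, WRKY6, WRKY42, WRKY45 and WRKY75 are known for their part in phosphate uptake and transfer.

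The coding sequences in the RefSeq annotation of TAIR10.1 held 61 WRKY domains in the 54 genes. There were 2 domains in 7 genes, all of group I, and a C2HC zinc finger in 10 genes, all of group III. The common heptapeptide stood in 58 domains and the other 3 differed, in WRKY50, WRKY51 and WRKY59, where a lysine codon takes the place of the glutamine codon. The 21 bases that encode the heptapeptide are shown for these 3 genes, and for WRKY70, WRKY55 and WRKY75 as called genes with the common form. The capitals mark the codon of the sixth residue. The sequences are those of the reference accession, and Or-1 and Rak-2 may differ from it.
WRKY50: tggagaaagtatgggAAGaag
WRKY51: tggaggaagtatggcAAGaaa
WRKY59: tggaggaaatacggaAAGaag
WRKY70: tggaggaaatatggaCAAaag
WRKY55: tggcgtaaatacggtCAAaaa
WRKY75: tggaggaaatatggcCAAaag
WRKY50, WRKY51 and WRKY59 all belong to subgroup IIc, and their values under NH4+ are given with that subgroup.

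W-boxes, taken as TTGACC or TTGACT on either strand, were counted in the 250 bases before each annotated gene start. At least 1 was found in 19 of the 54 WRKY promoters (35.19%), against 7797 of all 27443 protein-coding genes (28.41%), and 2 or more in 16.67% of the WRKY promoters, against 6.18% of all. A W-box was present in 4 of the 12 genes called higher under NH4+ in either ecotype, in 2 of the 4 called lower and in 12 of the 37 not called, numbers too small to set the classes apart. The promoters of WRKY41 and WRKY55 are shown because both genes were called higher in both ecotypes, that of WRKY45 because its response differed between the ecotypes, and that of WRKY30 because it held the most boxes, 3, and was called lower in Rak-2. The capitals mark the W-boxes on either strand, each sequence reads towards the gene, and the coordinates are those of TAIR10.1.
WRKY41 promoter, chr4:6758848-6759097, plus strand: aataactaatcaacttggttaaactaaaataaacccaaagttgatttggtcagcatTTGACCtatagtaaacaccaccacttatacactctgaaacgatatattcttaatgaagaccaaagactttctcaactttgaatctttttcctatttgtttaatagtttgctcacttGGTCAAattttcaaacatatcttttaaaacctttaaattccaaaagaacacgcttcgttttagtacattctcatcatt
WRKY55 promoter, chr2:16996828-16997077, plus strand: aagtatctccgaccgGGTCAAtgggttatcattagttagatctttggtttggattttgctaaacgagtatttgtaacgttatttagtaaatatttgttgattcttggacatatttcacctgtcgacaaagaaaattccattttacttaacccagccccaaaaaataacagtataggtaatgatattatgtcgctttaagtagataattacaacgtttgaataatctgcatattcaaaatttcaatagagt
WRKY45 promoter, chr3:327413-327662, minus strand: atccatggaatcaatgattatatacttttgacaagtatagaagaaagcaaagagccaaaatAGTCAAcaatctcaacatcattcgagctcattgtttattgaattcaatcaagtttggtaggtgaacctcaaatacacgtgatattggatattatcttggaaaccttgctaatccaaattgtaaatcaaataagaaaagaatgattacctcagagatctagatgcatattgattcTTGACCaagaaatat
WRKY30 promoter, chr5:8154711-8154960, minus strand: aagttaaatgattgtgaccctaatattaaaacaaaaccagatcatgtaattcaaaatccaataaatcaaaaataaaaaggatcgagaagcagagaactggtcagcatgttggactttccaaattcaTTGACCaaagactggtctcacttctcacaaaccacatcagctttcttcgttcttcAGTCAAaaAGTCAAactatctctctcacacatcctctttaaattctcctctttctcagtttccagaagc
The boxes end 189 and 73 bases before the start of WRKY41, 230 bases before that of WRKY55, 184 and 10 bases before that of WRKY45, and 119, 64 and 56 bases before that of WRKY30. The promoters of WRKY70 and WRKY22, which were called in both ecotypes, held no such letters in the same window.

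The depth lay between 16005610 and 22388738 counts per library. Levels are given as CPM (counts over the library total times its TMM factor) and as CPM per kb of the deposited gene length where genes are compared with each other. A gene was called where edgeR's quasi-likelihood test gave a Benjamini-Hochberg adjusted p under 0.05 over all genes tested and the log2 fold change exceeded 1 in size. The biological coefficient of variation between replicates was 0.223 in Or-1 NH4+, 0.241 in Or-1 NO3-, 0.158 in Rak-2 NH4+ and 0.343 in Rak-2 NO3-. Replicate 1 of Rak-2 NO3- had the lowest depth and the highest summed WRKY level of all libraries, 2580 CPM, against 1937 and 2163 CPM in the other Rak-2 NO3- libraries. Within Rak-2 NO3-, replicate 1 was the highest for 24 and the lowest for 21 of the 53 genes. In Or-1 NH4+, replicate 1 was the lowest of its group for 38 of the 53 genes and the highest for 6, while it was the highest for 37.1% of all genes tested. Root markers were present in every group (CASP1, a Casparian strip protein, averaged between 73.8 and 94.6 CPM). Of 7 root markers, only WER was called in a response. It averaged 2.12 CPM in Or-1 NH4+ against 6.48 CPM in Or-1 NO3- (log2 fold change -1.60, adjusted p = 0.0233). Leaf markers such as RBCS1A were found in all groups at varying levels, their sum over 6 genes ranging from 6.82 to 128 CPM in Or-1 NH4+, from 62.3 to 209 CPM in Or-1 NO3-, from 88.4 to 372 CPM in Rak-2 NH4+ and from 11.8 to 187 CPM in Rak-2 NO3-. The part of these leaf transcripts, or of the change in WER, in the WRKY values was not tested.

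WRKY levels per length spanned a wide range in these roots. WRKY11 and WRKY65 headed the family with means over the 12 libraries of 122 and 116 CPM per kb, WRKY15 followed with 84.6 CPM per kb, and WRKY8 (0.615 CPM per kb) and WRKY64 (0.0418 CPM per kb) closed the order. WRKY11 (AT4G31550), a calmodulin-binding member of subgroup IId known to restrain basal resistance, had 124, 165 and 191 CPM in the Or-1 NH4+ libraries, against 250, 247 and 266 CPM in Or-1 NO3-. In Rak-2 it had 142, 180 and 144 CPM under NH4+, against 326, 258 and 248 CPM under NO3-. The NH4+ libraries were below all NO3- libraries in both ecotypes, by a log2 fold change of -0.67 ± 0.17 for Or-1 (SE, adjusted p = 0.0211) and -0.84 ± 0.17 for Rak-2 (adjusted p = 0.0103), short of the fold threshold.

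WRKY65 (AT1G29280), of subgroup IIe, had 106, 126 and 125 CPM in Or-1 NH4+, against 167, 234 and 222 CPM in Or-1 NO3-, and 152, 173 and 148 CPM in Rak-2 NH4+, against 241, 264 and 207 CPM in Rak-2 NO3-. It too was lower under NH4+ with no overlap between groups (-0.80 ± 0.15 for Or-1, adjusted p = 0.00409, and -0.59 ± 0.15 for Rak-2, adjusted p = 0.0281). The most abundant WRKY transcripts under NO3- were thus lower under NH4+, while the third in the order, WRKY15, is described with the difference of the responses.

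**Figure D1:**
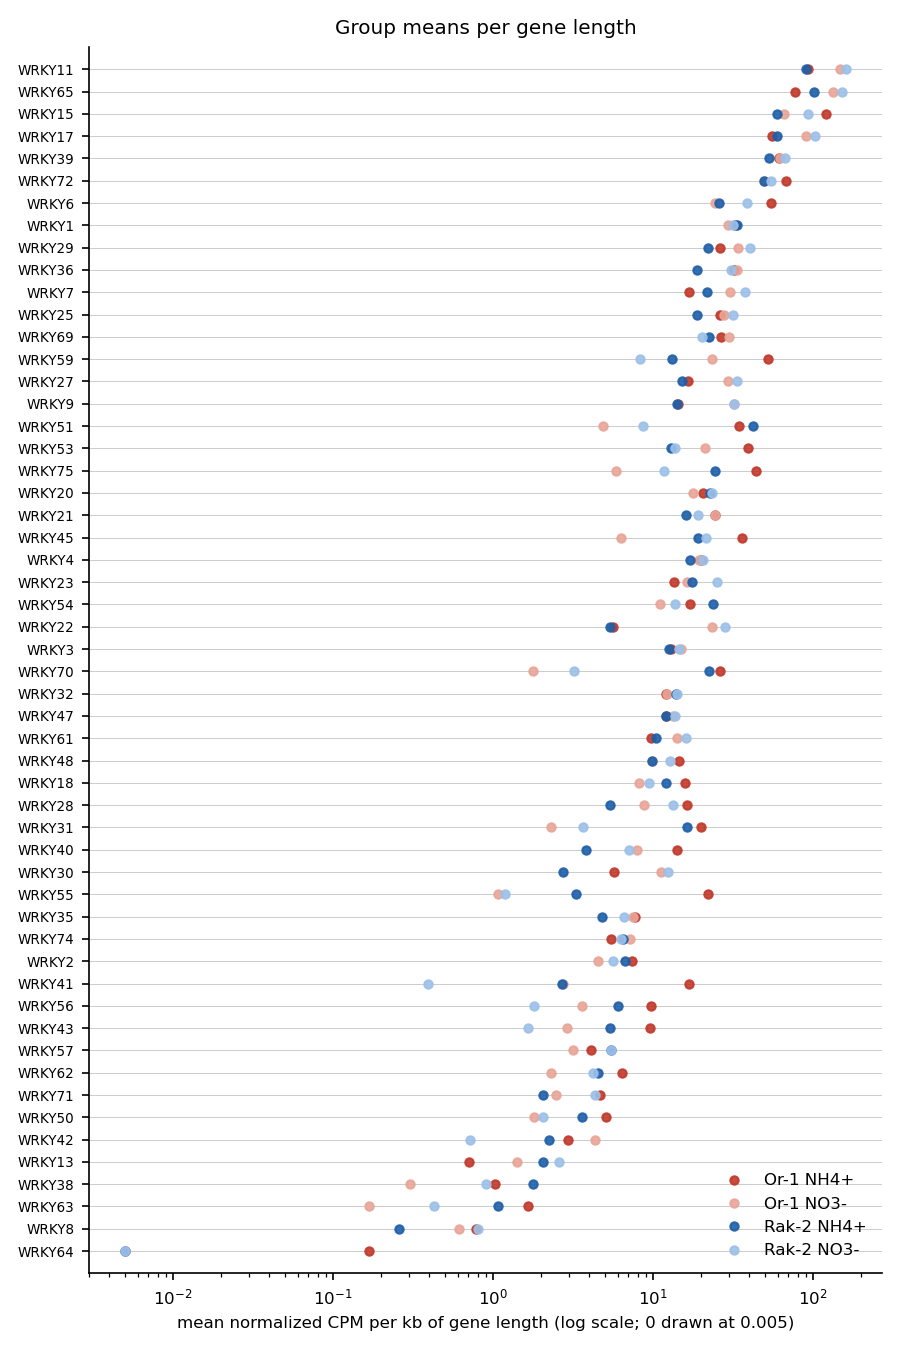
Mean normalized CPM per kb of gene length (log axis) of 54 WRKY genes in Or-1 NH4+, Or-1 NO3-, Rak-2 NH4+ and Rak-2 NO3- (3 libraries per point), ordered by the mean over all 12 libraries. WRKY11, WRKY65 and WRKY15 stand at the top, and WRKY64 has counts in Or-1 NH4+ and is drawn at 0.005 in the other groups, where it had 0 counts.

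The first comparison asked which WRKY genes changed with the nitrogen source within each ecotype. Of the 53 tested WRKY genes, 12 were higher under NH4+ for Or-1 (22.6%, where 5.26% of all genes were called higher) and 1 was lower (1.89%, where 3.60% of all genes were called lower). In Rak-2, 7 were higher (13.2%, against 2.69% of all genes) and 4 lower (7.55%, against 3.40% of all genes). The lower count turned on single libraries: it was 2 (3.77%) without Rak-2 NO3- replicate 1, where WRKY27 and WRKY28 lost their calls, and 7 without Rak-2 NO3- replicate 3. It was also 2 with only the Rak-2 libraries in the fit. The family had a median log2 fold change of 0.36 for Or-1 and -0.18 for Rak-2, beside medians of -0.05 and -0.01 over all genes tested. At the adjusted p alone, 23 WRKY genes passed in Or-1 and 16 in Rak-2. There were 7 genes called higher in both ecotypes, 5 called higher in Or-1 and not in Rak-2, 1 called lower in both, 3 called lower in Rak-2 and not in Or-1, and 37 called in neither.

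**Figure D2:**
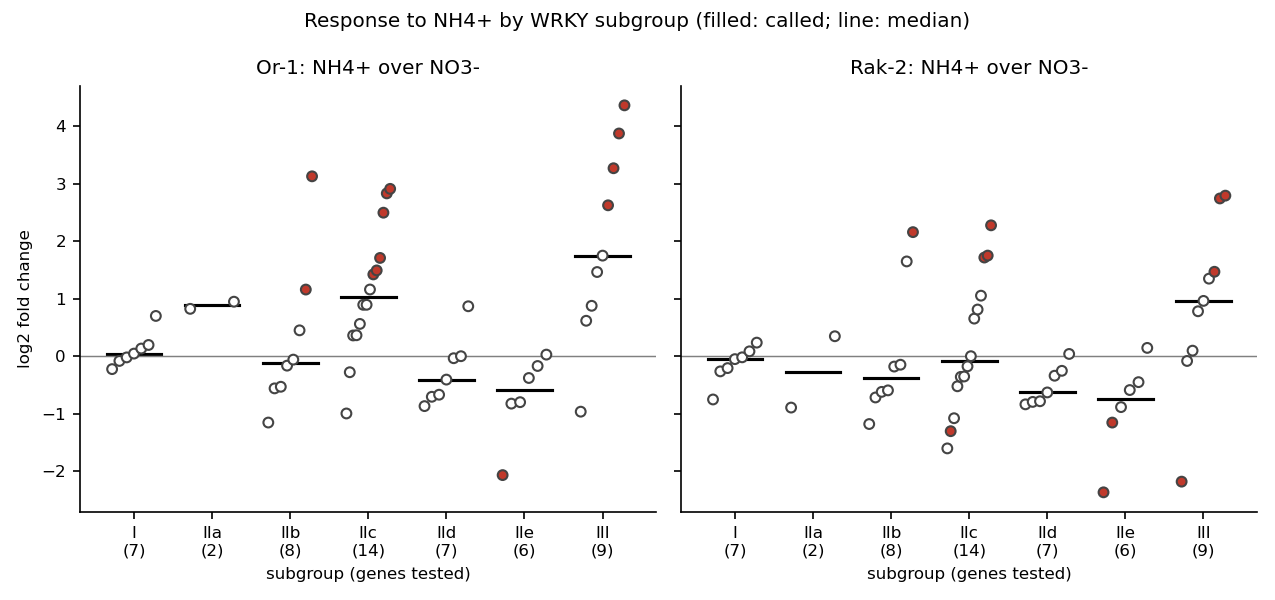
Log2 fold change, NH4+ over NO3-, of the 53 tested WRKY genes by subgroup in Or-1 (left) and Rak-2 (right). Filled points are called genes and lines are medians, which are highest in group III in both ecotypes (1.75 for Or-1 and 0.96 for Rak-2). The medians of subgroups IIb, IId and IIe are below 0 in both ecotypes, and in Rak-2 so are all others but that of group III.

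By subgroup, the calls were as follows. In group III, 4 of 9 tested genes were higher in Or-1, and 3 were higher and 1 lower in Rak-2, with median log2 fold changes of 1.75 and 0.96. In subgroup IIc, 6 of 14 were higher in Or-1, and 3 were higher and 1 lower in Rak-2, with medians of 1.03 and -0.09. Subgroup IIb had 2 of 8 genes higher for Or-1, and for Rak-2 there was 1. Of 6 genes in subgroup IIe, 1 was lower for Or-1 and 2 for Rak-2. None of the 7 tested genes of group I (WRKY1, WRKY2, WRKY3, WRKY4, WRKY20, WRKY25 and WRKY32), the 2 of subgroup IIa or the 7 of subgroup IId was called in either ecotype by edgeR's test, by DESeq2 or with the replicate block. At an unadjusted p under 0.05 there were 1 in group I, 1 in IIa and 4 in IId for Or-1, and 1, 1 and 5 for Rak-2 in the same order. Log2 fold changes in group I stayed between -0.22 and 0.70 in Or-1 and between -0.75 and 0.24 in Rak-2. In the other subgroups the genes called in neither response were WRKY18 and WRKY40 (IIa), WRKY9, WRKY36, WRKY42, WRKY47, WRKY61 and WRKY72 (IIb), WRKY8, WRKY13, WRKY23, WRKY48, WRKY57, WRKY59 and WRKY71 (IIc), WRKY7, WRKY11, WRKY15, WRKY17, WRKY21, WRKY39 and WRKY74 (IId), WRKY29, WRKY35, WRKY65 and WRKY69 (IIe), and WRKY38, WRKY53, WRKY54 and WRKY62 (III).

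WRKY70 (AT3G56400) of group III, which in leaves links salicylic acid to jasmonate responses, had the highest log2 fold change of the family in Rak-2 and the second highest in Or-1. It had 36.8, 47.6 and 64.2 CPM in Or-1 NH4+, against 2.92, 2.71 and 4.46 CPM in Or-1 NO3-, and 34.7, 41.0 and 51.6 CPM in Rak-2 NH4+, against 2.65, 6.29 and 9.30 CPM in Rak-2 NO3-. Every NH4+ library was above every NO3- library by a wide gap. The log2 fold change was 3.87 ± 0.41 in Or-1 (SE, adjusted p = 0.000105) and 2.79 ± 0.38 in Rak-2 (adjusted p = 0.00118), and the difference of these responses, 1.08 ± 0.52, was not called (adjusted p = 0.308). WRKY54, its close relative in senescence control, averaged 25.9 CPM in Or-1 NH4+ against 16.9 CPM in Or-1 NO3-, and 35.9 CPM in Rak-2 NH4+ against 20.8 CPM in Rak-2 NO3-, and was not called (adjusted p = 0.174 in Or-1 and 0.0958 in Rak-2).

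WRKY55 (AT2G40740), a group III gene that lies beside WRKY54 and promotes leaf senescence, had the highest log2 fold change of the family in Or-1. It had 26.9, 29.4 and 46.7 CPM in Or-1 NH4+, against 2.54, 1.54 and 0.971 CPM in Or-1 NO3-. The Rak-2 libraries had 4.37, 5.54 and 5.54 CPM under NH4+, against 2.37, 1.93 and 1.31 CPM under NO3-. The groups did not overlap in either ecotype, yet the Rak-2 NH4+ libraries stayed far below those of Or-1. The log2 fold change was 4.36 ± 0.36 in Or-1 (adjusted p = 2.39e-05) and 1.47 ± 0.34 in Rak-2 (adjusted p = 0.0197). The Rak-2 call was lost without Rak-2 NH4+ replicate 2 or 3 or Rak-2 NO3- replicate 2, with log2 fold changes of 1.41 to 1.51 and adjusted p of 0.0515 to 0.0667.

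WRKY41 (AT4G11070), a group III gene known for controlling seed dormancy through ABI3, was higher under NH4+ in both ecotypes, at different levels. It had 17.2, 19.6 and 23.4 CPM in Or-1 NH4+, against 5.07, 2.98 and 1.76 CPM in Or-1 NO3-. For Rak-2 the values were 1.91, 4.13 and 3.62 CPM under NH4+, against 0.209, 0.423 and 0.766 CPM under NO3-. Rak-2 under NH4+ thus held WRKY41 near its level in Or-1 under NO3- (means of 3.22 and 3.27 CPM). The log2 fold change was 2.62 ± 0.43 in Or-1 (adjusted p = 0.00165) and 2.74 ± 0.50 in Rak-2 (adjusted p = 0.00566). The difference of the responses, -0.12, was not called (adjusted p = 0.949).

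The fourth group III gene higher in Or-1 was WRKY63 (AT1G66600), also known as ABO3, which acts in abscisic acid and drought responses, and its counts were low. It had 0.924, 1.49 and 2.62 CPM in Or-1 NH4+, against 0.165, 0.213 and 0.132 CPM in Or-1 NO3-, where the 3 libraries held 10 counts together. The log2 fold change was 3.27 ± 0.59 (adjusted p = 0.00314). In Rak-2 it had 0.703, 1.05 and 1.52 CPM under NH4+, against 0.628, 0.188 and 0.492 CPM under NO3-, and was not called (log2 fold change 1.35 ± 0.54, adjusted p = 0.127). WRKY64, another group III gene on the same chromosome, had 10 counts over the Or-1 NH4+ libraries and 0 counts in every library of the other groups, where up to 3 counts would go unseen by counting error alone. Whether it shares reads with WRKY63 was not tested.

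WRKY30 (AT5G24110), induced by oxidative stress, was the group III gene that fell. It had 4.62, 2.41 and 3.58 CPM in Rak-2 NH4+, against 17.2, 22.2 and 8.70 CPM in Rak-2 NO3-, without overlap (log2 fold change -2.18 ± 0.44, adjusted p = 0.00955). In Or-1 it had 9.72, 7.74 and 4.67 CPM under NH4+, against 20.4, 14.6 and 8.21 CPM under NO3-, where the groups overlapped and the change was not called (-0.96 ± 0.42, adjusted p = 0.15). WRKY38 and WRKY62, both known to restrain basal defence, had log2 fold changes of 1.75 and 1.46 in Or-1 without passing the test (adjusted p = 0.165 and 0.0718). With the replicate number as a block, which paired the Or-1 libraries, WRKY62 passed at 1.37 (adjusted p = 0.0255), and it also passed with DESeq2 (1.49, adjusted p = 0.0211).

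**Figure D3:**
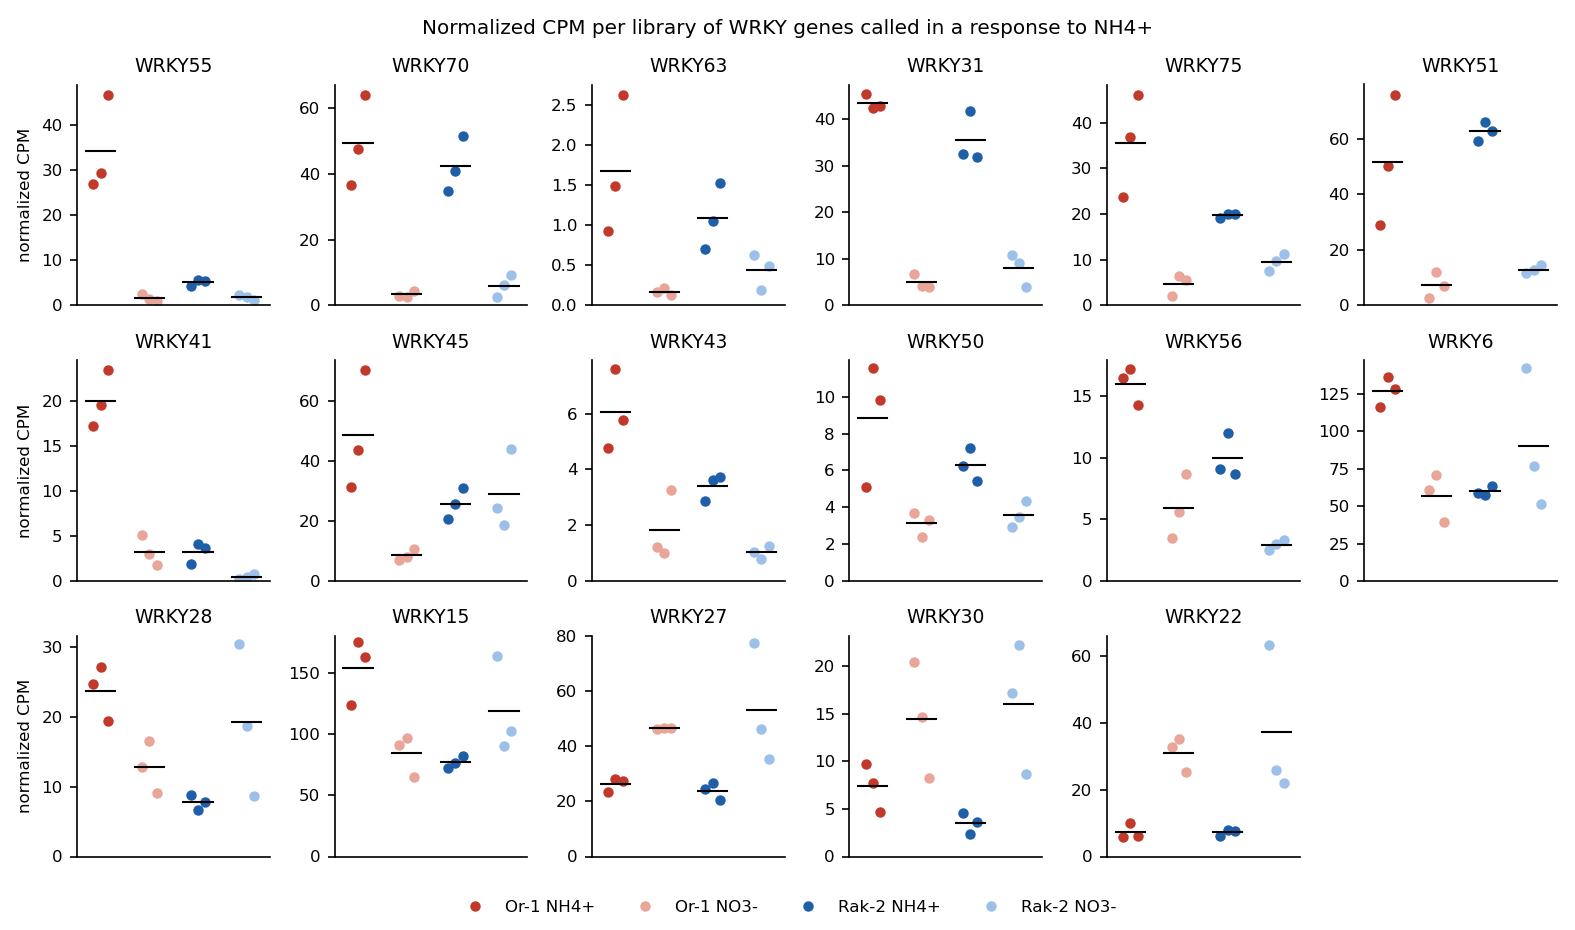
Normalized CPM of each library for the 17 WRKY genes called in the response of either ecotype or in the difference of the responses. Each panel shows, from left to right, Or-1 NH4+, Or-1 NO3-, Rak-2 NH4+ and Rak-2 NO3-, with 3 libraries per group and a line at the mean. WRKY55 reaches 26.9 to 46.7 CPM in Or-1 NH4+ and at most 5.54 CPM in Rak-2 NH4+.

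Subgroup IIc held the phosphate-related genes WRKY75 and WRKY45 (AT3G01970), which are close relatives. WRKY75 (AT5G13080), induced by phosphate starvation and known to affect root growth, had 23.8, 36.9 and 46.2 CPM in Or-1 NH4+, against 2.04, 6.49 and 5.65 CPM in Or-1 NO3- (log2 fold change 2.91 ± 0.37, adjusted p = 0.000362). The Rak-2 libraries had 19.2, 20.1 and 19.9 CPM under NH4+, against 7.46, 9.77 and 11.3 CPM under NO3-. The Rak-2 groups did not overlap either, but edgeR's test did not call the change (1.05 ± 0.35, adjusted p = 0.0739) or the difference of the responses (1.86 ± 0.49, adjusted p = 0.0927). The Rak-2 change was called by DESeq2 (adjusted p = 0.0245), with the replicate block (0.0178) and with only the Rak-2 libraries in the fit (0.0176), and the difference by DESeq2 (0.00815) and with the block (0.0332).

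WRKY45, an activator of the phosphate transporter gene PHT1;1, behaved otherwise. It had 31.6, 43.7 and 70.7 CPM in Or-1 NH4+, against 7.17, 8.13 and 10.6 CPM in Or-1 NO3- (log2 fold change 2.49 ± 0.36, adjusted p = 0.00086). For Rak-2 the values were 20.7, 25.7 and 31.0 CPM under NH4+, against 24.5, 18.9 and 44.1 CPM under NO3-. The Rak-2 groups overlapped and the change was not called (-0.18 ± 0.34, adjusted p = 0.78). The ecotypes differed in WRKY45 under NO3-, where Or-1 was lower by the test (log2 fold change, Or-1 over Rak-2, -1.75 ± 0.36, adjusted p = 0.00617), and not under NH4+ (0.91 ± 0.34, adjusted p = 0.0763).

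WRKY51 and WRKY50 (AT5G26170), which carry the lysine codon shown above and repress jasmonate signalling in plants low in oleic acid, were both higher in Or-1. WRKY51 (AT5G64810) had 28.8, 50.2 and 75.8 CPM in Or-1 NH4+, against 2.87, 11.96 and 6.93 CPM in Or-1 NO3-, and 59.2, 65.9 and 62.9 CPM in Rak-2 NH4+, against 11.6, 12.8 and 14.4 CPM in Rak-2 NO3-. It was called in both (log2 fold changes of 2.83 ± 0.44 and 2.27 ± 0.43, adjusted p = 0.00134 and 0.00675), and its level under NH4+ overlapped between the ecotypes. WRKY50 had 5.11, 11.5 and 9.82 CPM in Or-1 NH4+, against 3.69, 2.39 and 3.31 CPM in Or-1 NO3- (1.49 ± 0.31, adjusted p = 0.00676). In Rak-2 it had 6.22, 7.22 and 5.44 CPM under NH4+, against 2.93, 3.48 and 4.32 CPM under NO3-, and was not called (0.81 ± 0.30, adjusted p = 0.107). WRKY59 (AT2G21900), the other gene with this codon, averaged 50.9 CPM in Or-1 NH4+ against 22.8 CPM in Or-1 NO3-, with overlapping libraries and no call (1.16 ± 0.47, adjusted p = 0.125), and passed with the replicate number as a block (1.16, adjusted p = 0.04).

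WRKY56 and WRKY43 of the same subgroup were called higher in both ecotypes. WRKY56 (AT1G64000) had 16.5, 17.2 and 14.3 CPM in Or-1 NH4+, against 3.53, 5.58 and 8.74 CPM in Or-1 NO3-, and 9.13, 12.03 and 8.72 CPM in Rak-2 NH4+, against 2.51, 3.01 and 3.34 CPM in Rak-2 NO3-. Its log2 fold changes were 1.42 ± 0.28 in Or-1 (adjusted p = 0.00545) and 1.75 ± 0.29 in Rak-2 (adjusted p = 0.00349). WRKY43 (AT2G46130) had 4.76, 7.59 and 5.79 CPM in Or-1 NH4+, against 1.21, 1.01 and 3.27 CPM in Or-1 NO3-, and 2.86, 3.61 and 3.72 CPM in Rak-2 NH4+, against 1.05, 0.798 and 1.26 CPM in Rak-2 NO3-. Neither gene overlapped between the nitrogen sources. The calls of WRKY43 (1.71 ± 0.41 and 1.72 ± 0.43, adjusted p = 0.0153 and 0.0259) were lost in Or-1 without NH4+ replicate 2 or NO3- replicate 1 or 2 (adjusted p of 0.0505 to 0.0645) and in Rak-2 without any 1 of the libraries but NO3- replicate 3 (0.055 to 0.0772).

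WRKY28 (AT4G18170), an activator of the salicylic acid synthesis gene ICS1 and the remaining called gene of subgroup IIc, fell in Rak-2. It had 8.83, 6.70 and 7.79 CPM in Rak-2 NH4+, against 30.4, 18.6 and 8.64 CPM in Rak-2 NO3-, so that the groups overlapped and replicate 1 of Rak-2 NO3- stood highest. The log2 fold change of -1.30 ± 0.37 (adjusted p = 0.0452) was not called without any 1 of the Rak-2 libraries but NO3- replicate 3 (adjusted p of 0.0825 to 0.176), and was -0.80 without Rak-2 NO3- replicate 1. The call was also lost with only the Rak-2 libraries in the fit (adjusted p = 0.114). In Or-1, WRKY28 had 24.7, 27.1 and 19.4 CPM under NH4+, against 12.7, 16.5 and 9.13 CPM under NO3- (0.89 ± 0.37, adjusted p = 0.13).

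In subgroup IIb, WRKY31 (AT4G22070) rose in both ecotypes. It had 45.3, 42.2 and 42.7 CPM in Or-1 NH4+, against 6.84, 4.15 and 3.97 CPM in Or-1 NO3- (log2 fold change 3.13 ± 0.33, adjusted p = 0.000106). The Rak-2 libraries had 32.5, 41.8 and 31.9 CPM under NH4+, against 10.9, 9.02 and 3.99 CPM under NO3- (2.16 ± 0.32, adjusted p = 0.00174). WRKY6 (AT1G62300), which represses the phosphate exporter gene PHO1 and promotes senescence, was higher in Or-1 with 116, 136 and 128 CPM under NH4+, against 60.4, 70.7 and 39.2 CPM under NO3- (1.16 ± 0.31, adjusted p = 0.0278). In Rak-2 its libraries overlapped, with 58.7, 57.0 and 63.4 CPM under NH4+, against 142, 77.0 and 51.2 CPM under NO3- (-0.59 ± 0.31, adjusted p = 0.232). The Or-1 call of WRKY6 was lost without any 1 of the Or-1 libraries but NO3- replicate 2, with log2 fold changes of 0.98 to 1.23 and adjusted p of 0.0502 to 0.0861.

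In subgroup IIe, 2 genes fell. WRKY22 (AT4G01250), which acts below a MAP kinase cascade in flagellin signalling, had 5.93, 10.1 and 6.27 CPM in Or-1 NH4+, against 32.7, 35.3 and 25.1 CPM in Or-1 NO3- (log2 fold change -2.07 ± 0.37, adjusted p = 0.00319). For Rak-2 the values were 6.02, 7.90 and 7.64 CPM under NH4+, against 63.3, 26.02 and 22.1 CPM under NO3- (-2.36 ± 0.38, adjusted p = 0.00272). The NH4+ levels of the ecotypes overlapped, and without the high Rak-2 NO3- replicate 1 the log2 fold change was -1.73 (adjusted p = 0.00204). WRKY27 (AT5G52830), linked to the symptoms of bacterial wilt, had 24.4, 26.7 and 20.4 CPM in Rak-2 NH4+, against 77.3, 46.4 and 35.4 CPM in Rak-2 NO3- (-1.15 ± 0.23, adjusted p = 0.0101), which became -0.77 without that replicate. In Or-1 it had 23.3, 28.04 and 27.4 CPM under NH4+, against 46.4, 46.6 and 46.4 CPM under NO3-, a separation that passed the adjusted p but not the fold threshold (-0.82 ± 0.23, adjusted p = 0.0339). WRKY29, the partner of WRKY22 in flagellin signalling, averaged 36.5 CPM in Or-1 NH4+ against 47.5 CPM in Or-1 NO3-, and 30.6 CPM in Rak-2 NH4+ against 56.5 CPM in Rak-2 NO3-, and was not called.

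Smaller changes passed the adjusted p without reaching the fold threshold. In Or-1 these were 10 genes: WRKY2, WRKY18, WRKY48, WRKY15 and WRKY53 were higher by 0.56 to 0.95 in log2, and WRKY7, WRKY11, WRKY17, WRKY65 and WRKY27 were lower, with log2 fold changes between -0.87 and -0.67. WRKY18, a repressor that works with WRKY40 against powdery mildew resistance, was highest among them (0.95 ± 0.15, adjusted p = 0.00119). In Rak-2 they were 5 genes, all lower: WRKY7, WRKY11, WRKY17, WRKY65 and WRKY36. WRKY7, WRKY11 and WRKY17 belong to subgroup IId, and all 3 were lower in both ecotypes. Of the same subgroup, WRKY15 was higher in Or-1, and WRKY21, WRKY39 and WRKY74 passed in neither ecotype. WRKY9 had a log2 fold change of -1.15 in Or-1 and missed the adjusted p (0.0621). It was called there with the replicate number as a block (-1.14, adjusted p = 0.0186), with DESeq2 (0.0195), with only the Or-1 libraries in the fit (0.0156) and with upper-quartile (0.0482) or library size scaling (0.0458). In Rak-2, WRKY9 was called with the block (-1.03, adjusted p = 0.0382), with DESeq2 (-1.17, adjusted p = 0.018) and without Rak-2 NO3- replicate 3 (-1.56, adjusted p = 0.00204).

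Tested against a change of at least the fold threshold (edgeR's glmTreat), 8 WRKY genes stayed called in Or-1, WRKY31, WRKY45, WRKY51, WRKY75, WRKY41, WRKY55, WRKY63 and WRKY70, and 3 in Rak-2, WRKY31, WRKY22 and WRKY70.

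**Figure D4:**
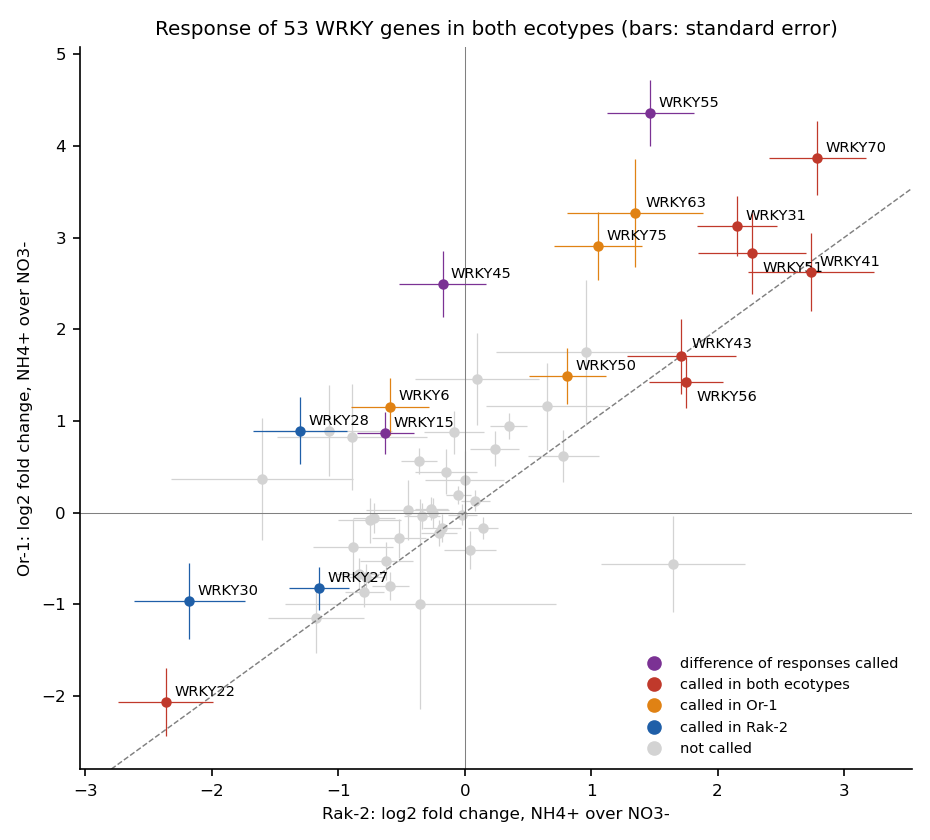
Log2 fold change, NH4+ over NO3-, of the 53 tested WRKY genes in Rak-2 (horizontal axis) and Or-1 (vertical axis), with standard errors and a dashed line of equal response. WRKY55, WRKY45 and WRKY15, whose responses differed by the test, lie above the line, and WRKY55 was called in both ecotypes.

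The difference of the responses, Or-1 minus Rak-2, asked whether the ecotypes reacted unequally. It was called for 3 of the 53 WRKY genes, all with the higher value in Or-1 (5.66%, where 1.08% of all genes were called in this direction), and by edgeR's test for none in the opposite direction (0.150% of all genes), where DESeq2 also called 0 and 1 gene had an unadjusted p under 0.05. The median difference of the family was 0.46, beside -0.01 over all genes tested, and 14 WRKY genes had an unadjusted p under 0.05 in either direction. With the replicate block, 6 were called in the direction of Or-1 and 1, WRKY42, in the opposite one (-2.34, adjusted p = 0.0491). The called genes were WRKY55, with a difference of 2.89 ± 0.48 (adjusted p = 0.0182), WRKY45, with 2.67 ± 0.49 (adjusted p = 0.0281), and WRKY15 (AT2G23320), with 1.497 ± 0.32 (adjusted p = 0.0472).

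WRKY15, a subgroup IId gene tied to mitochondrial and salt stress, had 124, 175 and 163 CPM in Or-1 NH4+, against 91.1, 97.2 and 65.0 CPM in Or-1 NO3-. In Rak-2 it had 72.2, 76.3 and 82.2 CPM under NH4+, against 164, 90.6 and 102 CPM under NO3-. The NH4+ libraries were above all NO3- libraries in Or-1 and below them in Rak-2, although neither response was called alone (0.87 ± 0.23, adjusted p = 0.024, in Or-1 and -0.63 ± 0.23, adjusted p = 0.0949, in Rak-2). Without Rak-2 NO3- replicate 1, the highest of its group, the difference was 1.18 (adjusted p = 0.0637).

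These calls depended on single libraries. The number of genes called for the difference was 0 without Rak-2 NH4+ replicate 1 or 2, 1 without Rak-2 NH4+ replicate 3, Or-1 NH4+ replicate 2 or 3 or Or-1 NO3- replicate 1 or 3, and 6 without Rak-2 NO3- replicate 3. WRKY55 lost its call without Rak-2 NH4+ replicate 1 or 2 (differences of 2.80 to 2.97, adjusted p of 0.0559 to 0.0657). WRKY45 lost it without any 1 of the Rak-2 NH4+ or Or-1 NO3- libraries or Or-1 NH4+ replicate 2 or 3 (2.30 to 2.86, adjusted p of 0.0516 to 0.0922). WRKY15 lost it without any 1 of these or Rak-2 NO3- replicate 1 (1.18 to 1.61, adjusted p of 0.0637 to 0.141). The differences kept their sign in all of these fits. Among genes called in 1 ecotype only, the difference itself was not called by edgeR's test for WRKY75, WRKY6 (1.75 ± 0.44, adjusted p = 0.0812), WRKY28 (2.20 ± 0.52, adjusted p = 0.0697), WRKY50 (0.68 ± 0.43), WRKY63 (1.92 ± 0.80), WRKY27 (0.33 ± 0.33) or WRKY30 (1.22 ± 0.60). DESeq2 called the difference for WRKY28 (2.21, adjusted p = 0.00209), WRKY6 (1.77, adjusted p = 0.00461) and WRKY75. Without Rak-2 NO3- replicate 3 it was called for WRKY28 (2.55, adjusted p = 0.00689) and WRKY6 (2.03, adjusted p = 0.0131), and with the replicate block for WRKY28 (2.09, adjusted p = 0.0364), WRKY75 and WRKY71 (1.97, adjusted p = 0.0155).

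The ecotypes were also compared directly under each nitrogen source, which shares libraries with the responses above. Reads of both accessions were counted under the same gene identifiers. A difference in RNA level and a difference in how well the reads of each accession were assigned cannot be told apart here. Under NH4+, 8 WRKY genes were higher in Or-1 than in Rak-2 (15.1%, where 6.55% of all genes were called higher) and none was lower by edgeR's test (5.66% of all genes), where DESeq2 also called 0 and 2 genes had an unadjusted p under 0.05. These were WRKY55 and WRKY41 of the called responders, with log2 fold changes, Or-1 over Rak-2, of 2.73 ± 0.33 (adjusted p = 0.000155) and 2.64 ± 0.43 (adjusted p = 0.00111), WRKY28 (1.61 ± 0.38, adjusted p = 0.0103), WRKY6 (1.08 ± 0.31, adjusted p = 0.0282) and WRKY15 (1.00 ± 0.23, adjusted p = 0.00887), together with WRKY59, WRKY53 and WRKY40. WRKY53 (AT4G23810), a senescence regulator of group III, had 55.9, 66.6 and 54.5 CPM in Or-1 NH4+, against 19.1, 22.3 and 17.2 CPM in Rak-2 NH4+ (1.59 ± 0.24, adjusted p = 0.000737). WRKY59 had 21.4, 50.5 and 80.8 CPM in Or-1 NH4+, against 12.8, 13.8 and 11.8 CPM in Rak-2 NH4+ (1.99 ± 0.48, adjusted p = 0.0125). WRKY40 (AT1G80840), a stress-induced repressor of subgroup IIa, had 16.4, 35.3 and 22.2 CPM in Or-1 NH4+, against 6.12, 7.17 and 6.76 CPM in Rak-2 NH4+ (1.88 ± 0.60, adjusted p = 0.0425). All of these genes were without overlap between the ecotypes.

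Under NH4+ the calls of WRKY40, WRKY6 and WRKY15 depended on single libraries. That of WRKY40 was lost without any 1 library but Or-1 NH4+ replicate 1 (adjusted p of 0.07 to 0.147), and so was that of WRKY6 (0.0619 to 0.0851). That of WRKY15 was lost without Rak-2 NH4+ replicate 1 or Or-1 NH4+ replicate 2 or 3, where its log2 fold change was 0.90 to 0.97. The count of called genes was 5 without Rak-2 NH4+ replicate 1, Or-1 NH4+ replicate 2 or Or-1 NH4+ replicate 3. With the replicate number as a block, which paired the NH4+ libraries, WRKY71 was called as well (1.19, adjusted p = 0.00321, against 1.17 and adjusted p = 0.117 without the block). Levels of WRKY70, WRKY51 and WRKY22 overlapped between the ecotypes under NH4+.

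Under NO3-, 3 WRKY genes were higher in Or-1 (5.66%, where 4.35% of all genes were called higher) and 1 was lower (1.89%, where 4.29% of all genes were called lower), shares near those of all genes. WRKY41 was higher in Or-1 under NO3- as under NH4+ (2.76 ± 0.50, adjusted p = 0.00303). WRKY42 (AT4G04450), which acts with WRKY6 on PHO1, had 11.9, 8.98 and 9.84 CPM in Or-1 NO3-, against 2.79, 1.78 and 0.547 CPM in Rak-2 NO3- (2.60 ± 0.58, adjusted p = 0.0108). WRKY56 was also called (1.01 ± 0.29, adjusted p = 0.0401), a call lost without any 1 of the Rak-2 NO3- libraries or Or-1 NO3- replicate 2 or 3 (adjusted p of 0.0575 to 0.152). The lower gene was WRKY45.

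Genes that work with WRKY proteins were read from lists of known partners and targets. Over all genes tested, 5.26% were called higher and 3.60% lower in Or-1. In Rak-2 these shares were 2.69% and 3.40%. Among 8 tested genes of MAP kinase cascades, 2 were higher in Or-1. MPK11 averaged 27.1 CPM in Or-1 NH4+ against 4.59 CPM in Or-1 NO3- (log2 fold change 2.57 ± 0.49, adjusted p = 0.00423), and MKK9 averaged 49.8 CPM against 16.1 CPM (1.62 ± 0.35, adjusted p = 0.00913). In Rak-2 their log2 fold changes were 0.47 ± 0.46 for MPK11 and 0.85 ± 0.35 for MKK9, and the difference of the responses was called for neither gene (adjusted p of 0.137 for MPK11 and 0.445 for MKK9). The kinases MEKK1, MKK1, MKK2, MKK5, MPK4 and MPK6 were not called. MKK2 passed the adjusted p in Or-1 (0.0097) short of the fold threshold (0.62). MKK4 and MPK3, also listed, were not analysed here. Of 26 tested VQ motif proteins, which bind WRKY domains, 6 were higher and 3 lower in Or-1, led by VQ10 (2.55), VQ23 (2.43), VQ1 (1.63) and VQ22 (1.49) and by VQ25 (-2.33), VQ18 (-1.82) and VQ26 (-1.24). In Rak-2, 1 was lower, VQ29 (-4.14 ± 0.87, adjusted p = 0.0117). The difference of the responses was called for VQ18 alone (-1.43, adjusted p = 0.0346), with the lower value in Or-1. It was called for none of the VQ genes higher in Or-1.

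Of 8 tested genes reported elsewhere as targets of WRKY proteins, 4 were higher and 3 lower in Or-1, and 3 higher and 2 lower in Rak-2. CBP60g, an activator of salicylic acid synthesis, was higher in both ecotypes, with a log2 fold change of 2.64 ± 0.29 for Or-1 (adjusted p = 0.000154) and 2.02 ± 0.29 for Rak-2 (adjusted p = 0.00147). ICS1 (1.56 for Or-1, 2.46 for Rak-2) and the alternative oxidase gene AOX1A (1.65 and 1.35) were higher in both ecotypes, and SARD1 (1.35) in Or-1. FRK1, a flagellin-response gene placed below WRKY22 and WRKY29, was lower in both (-2.82 ± 0.43 and -3.12 ± 0.41, adjusted p = 0.0012 and 0.000916). PHT1;1 was lower in both (-1.91 and -1.54), and PHO1 was called lower in Or-1 (-1.46), with -0.97 in Rak-2. WRKY45, known to activate PHT1;1, was called higher in Or-1 and not called in Rak-2, while PHT1;1 was lower in both. Any link between these targets and the WRKY genes was not tested. Among 5 tested salicylic acid markers, GRX480 (2.95 and 2.61) and NIMIN2 (2.23 and 2.15) were higher in both ecotypes, and the others were not called in either response. PR1, also listed, did not pass the filter on low counts, with group means of at most 0.0335 CPM.

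Of 8 genes known to react to touch and wounding, 4 were called higher in Or-1, led by TCH4 (3.17) and TCH3 (2.59). In Rak-2, TCH4 was higher (1.27) and CML38 lower (-3.14). TCH2 (0.79 in Or-1 and 0.89 in Rak-2), JAZ10 (0.98 and 1.12) and ZAT12 (1.64 and 1.03) were called in neither ecotype. CML38 was not called in Or-1 (-0.60). The summed level of the 8 genes was between 1357 and 1715 CPM in Or-1 NH4+, against 281 to 561 CPM in Or-1 NO3-, and between 425 and 438 CPM in Rak-2 NH4+, against 311 to 609 CPM in Rak-2 NO3-. Much of the sum in Or-1 NH4+ was TCH3, which averaged 916 CPM there. The difference of the responses was called for TCH3 (2.61) and TCH4 (1.91). Of 8 clock genes, PRR9 was lower in both ecotypes (-1.37 and -2.85) and CCA1 in Rak-2 (-3.67), and the other 6 were not called in either response. Their part in the WRKY values was not tested.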

How the data were processed

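Root RNA of 12 samples, 3 in each of 4 groups, was sequenced on an Illumina platform. The authors deposited one table of whole-number counts per gene and library, with a gene length and no normalization, and the aligner, the counting program and the genome build are not given in the sources used here. A further 3 deposited tables hold the authors' own comparisons (FPKM, log2 ratio, p-value and FDR) and were not used. Samples were grouped by their labels. Counts were fitted in R 4.3.3 with edgeR 4.0.16 and limma 3.58.1: filterByExpr (minimum 10 counts, total 15), TMM scaling, one coefficient per group over all 12 libraries and the quasi-likelihood F test with Benjamini-Hochberg adjustment over 19327 genes. Calls needed an adjusted p below 0.05 and a log2 fold change above 1 in size. The SE was taken as the size of the log2 fold change over the square root of F. It is therefore approximate, most of all where the change is near 0. No study method names a count test, and the thresholds are those of its methods. Alternatives were other scalings, no filter, adjusted p alone, glmTreat, only the groups compared, a replicate block, leaving out each library, and DESeq2 1.42.0. The steps were tested on simulated data. Values by library are given for each WRKY gene called in a response or in the difference, for those the study names and for the 3 highest per length; partner genes are named where called, at most 4 per list and direction. The members and lists were chosen with earlier results of these data known.

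Same-numbered libraries deviated together in Or-1 (NH4+ against NO3-, correlations of 0.296 to 0.445) and between the ecotypes under NH4+ (0.216 to 0.336), and not in every pair of Rak-2 (-0.029 to 0.303) or under NO3- (0.0467 to 0.541). Whether counting used strand is not stated, so overlapping genes may share reads. The counts are reads without molecular identifiers, so the floor of 3 counts covers counting error only. Sequences were read from the RefSeq genome and annotation of TAIR10.1 by gene identifier.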

Additional observations from a re-analysis of the deposited data

Results flagged for a closer look

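The response to NH4+ differed between Or-1 and Rak-2 by the test of the difference itself for 3 WRKY genes. The difference, Or-1 minus Rak-2 on the log2 scale, was 2.67 for WRKY45, 1.497 for WRKY15 and 2.89 for WRKY55. WRKY45 was higher under NH4+ in Or-1 and overlapped between the nitrogen sources in Rak-2, WRKY15 lay on opposite sides of its NO3- libraries in the ecotypes, and WRKY55 was higher in both. Each call was lost in at least 2 of the 12 fits that left out 1 library.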

How the results depend on the processing

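None of the 39 called WRKY values changed sign under the alternatives run. Of the 227 that were not called, 64 changed sign at least once (166 of 3433 fits), among them WRKY45 in Rak-2 and the difference of WRKY41. Of the called values, 13 lost their call at least once when a library was left out (59 of 252 fits), and 25 at least once under the other alternatives (37 of 309). Called genes numbered 13 in Or-1, 11 in Rak-2, 8 between the ecotypes under NH4+, 4 under NO3- and 3 for the difference. With 1 library left out the counts ranged from 11 to 15, 8 to 14, 5 to 9, 3 to 5 and 0 to 6 in that order, and in Rak-2 from 5 to 7 higher and 2 to 7 lower. With glmTreat they were 8, 3, 2, 1 and 0, the 2 under NH4+ being WRKY41 and WRKY55 and the 1 under NO3- WRKY41, and at the adjusted p alone Or-1 had 23. DESeq2 called 6 differences, those of WRKY6, WRKY28 and WRKY75 being added, with WRKY9, WRKY42 and WRKY75 in Rak-2, WRKY9 and WRKY62 in Or-1 and WRKY59 and WRKY75 under NO3- beyond edgeR's test. The replicate block gave 16, 15, 9, 5 and 7 calls in that order; the numbers were not shown to pair the Rak-2 or NO3- libraries, so the differences rest on a block that holds for part of the fit. The block changed no call in Or-1 or under NH4+ beyond those given. With only the groups compared in the fit, WRKY28 and WRKY27 in Rak-2, WRKY56 under NO3- and WRKY15 under NH4+ were lost. Under upper-quartile scaling WRKY6 and WRKY15 under NH4+, WRKY28 in Rak-2 and the difference of WRKY15 were lost, WRKY56 under NO3- was lost with RLE scaling, and WRKY28 in Rak-2 and WRKY15 under NH4+ with library size scaling. Depth limits WRKY63 and WRKY64, with 10 counts in Or-1 NO3- and Or-1 NH4+.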
